A study of Homo sapiens with 6 samples.

Results

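The MYC, MAX and MXD network was examined in T47D cells, a human breast cancer line of luminal type, cultured in normoxia or hypoxia. Its 10 members were taken by gene symbol from the 27754 genes in the count files: MYC, MAX, MXI1, MXD1, MXD3, MXD4, MNT, MGA, MLX and MLXIP. There were 3 libraries of control cells at 20% O2 (normoxia) and 3 libraries of cells kept for 48 h in hypoxia, at 0.5% O2 per the labels (the study's text gives a different O2 level for this sequencing experiment, so the level is uncertain). All groups were 1 line in adherent culture with serum, and the labels name no transgene or drug. The labels number the libraries 1 to 3 in each condition. The study's legend for this experiment speaks of independent experiments, and its methods treat hypoxia and normoxia samples as paired. The question was which genes of the network differed in mRNA level between hypoxia and normoxia.

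Proteins of this network are basic helix-loop-helix leucine zipper factors that bind DNA in pairs, most often at the E-box CACGTG. MYC pairs with MAX and activates genes of growth and ribosome production, whereas the MXD proteins, MNT and MGA pair with the same MAX and repress. MLX stands beside MAX as a second shared partner: it pairs with MLXIP (MondoA), which responds to sugar phosphates, and with some MXD proteins and MNT. MXI1 is a known target of the hypoxia-inducible factors (HIFs), and HIF activity is known to oppose or to cooperate with MYC depending on the gene. The counts measure mRNA, so they say nothing of protein level, pairing or DNA binding.

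The libraries held 32989104 to 89883409 counts, the highest being hypoxia replicate 3. Members had between 188 and 10400 counts per library, far above the 3 counts that set a detection floor (0.0334 to 0.0909 CPM, counts scaled to library size). That floor covers counting error only. In bulk RNA, a change in the cells present and a change in the RNA per cell cannot be told apart. All 9 luminal markers examined were detected in all libraries, with a summed level of 13959 to 18121 CPM in normoxia and 10193 to 13471 CPM in hypoxia. Of these, ESR1, PGR, GATA3 and FOXA1 were called lower in hypoxia by the test below, which called 29.1% of all tested genes lower. The other 5 (KRT8, KRT18, KRT19, EPCAM and CDH1) were not called. Among them KRT8, the most abundant, went from 5801 to 4070 CPM on average, and EPCAM and CDH1 had a positive change. The 10 mesenchymal-like markers summed to 94.7 to 126 CPM in normoxia and 202 to 242 CPM in hypoxia, and 5 blood and endothelial markers to at most 2.14 CPM. The 3 basal markers summed to at most 2.08 CPM. The libraries numbered 3 stood apart in both conditions for some of these markers. VIM had 395 and 1001 counts in them against 7 to 35 in the others, and CAV2 had 13 and 40 against 0. MSN, CAV1, SPARC and ANXA1 were also highest there in CPM. The list did not move together, as FN1 (27.8 and 78 CPM) and CD44 (42 and 63.2 CPM) were lowest there in normoxia and hypoxia. The summed level of the list was lowest there too (94.7 and 202 CPM). Of the 8 mesenchymal-like markers tested, AXL, ANXA1 and FN1 were called higher in hypoxia, by a test that called 30.4% of all tested genes higher. The part of these markers in the results below was not tested, and values without both libraries numbered 3 are given for the members, the ratios and the lists.

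Hypoxia went with a higher level of 4 members (MXI1, MXD1, MNT and MLXIP) and a lower level of 1 (MLX), by the quasi-likelihood test of edgeR over 15657 genes at an adjusted p under 0.05. Changes are given as log2-fold change (log2FC) of hypoxia over normoxia with a standard error (SE). The same test called 59.5% of all tested genes (30.4% up and 29.1% down), so 5 of 10 members was close to the background. The other 5 members, MYC, MAX, MXD3, MXD4 and MGA, did not pass. MXI1 and MLX were the 2 members past both the adjusted p and an absolute log2FC of 1, a limit passed by 20.1% of all genes (15.2% up and 4.91% down). The CPM values of the 3 hypoxia libraries lay wholly above those of normoxia for 4 members and wholly below for 1, against 67.3% of all genes whose groups did not overlap (34.9% above and 32.4% below). The median log2FC of the members was 0.32, and that of all tested genes was 0.028. With the replicate number as a block, 6 members were higher and 1 lower (71.8% of all genes called, 36.6% up and 35.2% down). Without both libraries numbered 3, 6 were higher and 2 lower (71.2% of all genes, 36.4% up and 34.8% down). Without both numbered 1, only MXI1 and MLX passed, and the share of all genes called was 30.8% (16.9% up and 13.9% down). With upper-quartile scaling 7 members were higher and 1 lower, against 59.1% of all genes (38.1% up and 21% down).

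**Figure D1:**
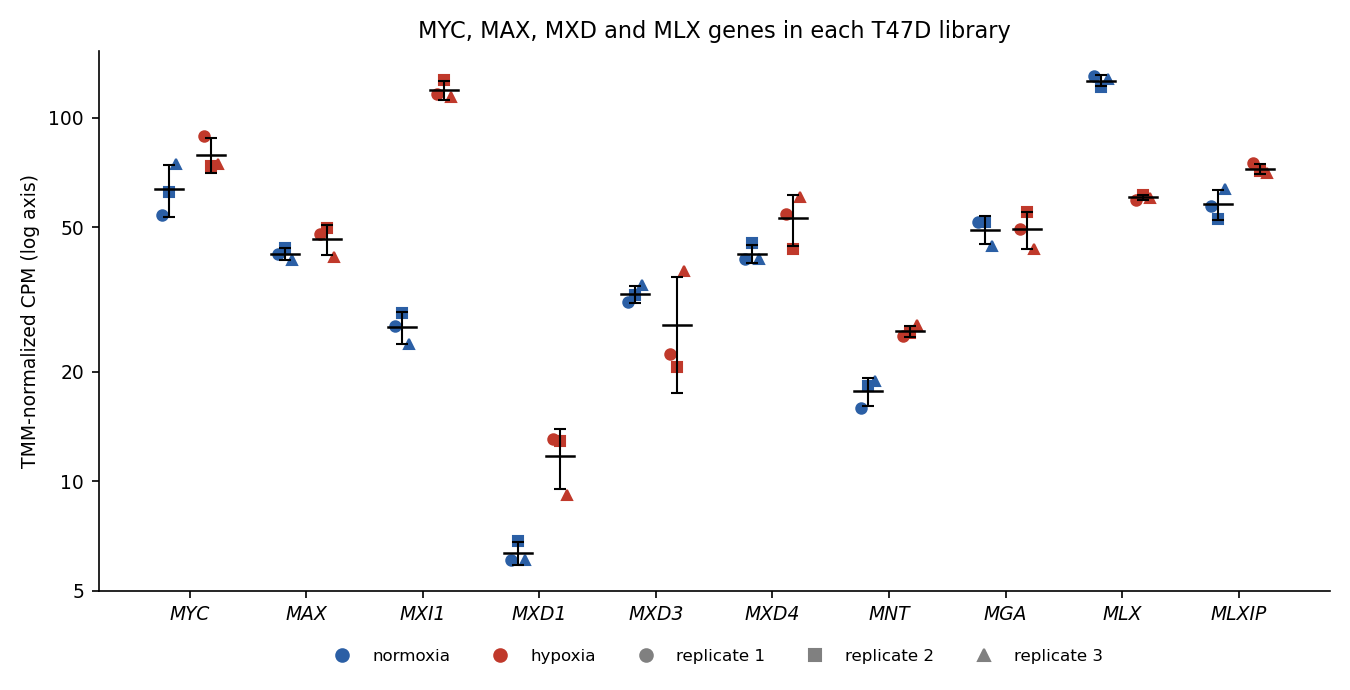
TMM-normalized CPM (log axis) of the 10 members in each library, with normoxia in blue and hypoxia in red. Black bars give the mean and SD of 3 libraries. MXI1 rose from 26.5 to 119 CPM on average, MLX fell from 126 to 60.3 CPM, and the 2 groups of MGA overlap at means of 49.2 and 49.4 CPM.

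MYC, the activator of the network, was at 54, 62.4 and 74.5 CPM in normoxia replicates 1, 2 and 3 and at 89.2, 73.8 and 74.3 CPM in hypoxia replicates 1, 2 and 3. Here and below, CPM values were normalized by the trimmed mean of M values (TMM). The groups overlapped, because normoxia replicate 3 was above both hypoxia replicates 2 and 3. The mean went from 63.7 ± 10.3 to 79.1 ± 8.72 CPM (SD, 3 libraries each), and the log2FC was 0.31 (SE 0.13, adjusted p = 0.0731, edgeR). The 95% interval of that change was 0.0061 to 0.62, before adjustment for the number of genes. Within same-numbered pairs the log2 ratio was 0.72, 0.24 and -0.0037 for replicates 1, 2 and 3. With the replicate number as a block MYC was called (0.32, adjusted p = 0.0427). It also passed without normoxia replicate 3 (0.44, adjusted p = 0.0153) and without both libraries numbered 3 (0.49, adjusted p = 1.93e-04). Without both libraries numbered 1 it was 0.11 (adjusted p = 0.593), so the size of any MYC change depended on which pairs were used. The counted exons of MYC lie on the forward strand of chromosome 8 at 128748315 to 128753680 (GRCh37, 3 merged exons), and no exon of another gene in the files overlaps them.

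Among other genes of the MYC and MLX families, MYCL, a MYC paralog, was far less abundant per length and rose. Its CPM ranged from 3.3 to 5.51 in normoxia and from 13.6 to 15.4 in hypoxia (log2FC 1.76, SE 0.19, adjusted p = 2.32e-04). Per length, MYCL was at 2.16 ± 0.619 TPM (counts scaled to gene length and library size) in normoxia and 7.95 ± 0.794 TPM in hypoxia, against 65.5 ± 8.71 and 88.9 ± 11.4 TPM for MYC (SD, n = 3). The log2FC of MYCL was 1.66 without both libraries numbered 3. MYCN had 2 to 13 counts per library and was not tested. MLXIPL (ChREBP), the paralog of MLXIP, rose from 21.4 ± 0.237 to 31.1 ± 0.857 CPM with a log2FC of 0.54 (adjusted p = 8.27e-04).

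MAX, the shared partner, did not pass the test. Its CPM ranged from 40.5 to 43.7 in normoxia and from 41.3 to 49.8 in hypoxia (log2FC 0.14, 95% interval -0.080 to 0.35, adjusted p = 0.240). Hypoxia replicates 1 and 2 were above all normoxia libraries and hypoxia replicate 3 was not. Without hypoxia replicate 3 the change was 0.21 (adjusted p = 0.0466), and without both libraries numbered 3 it was 0.19 (adjusted p = 0.0241). The exons of MAX (chromosome 14, 65472819 to 65569413, reverse strand) share 108 bases with LOC100506321, which had at most 14 counts in any library.

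MXI1, which pairs with MAX and represses through the SIN3 corepressor, had the largest change of the 10 members. It was at 26.7, 29 and 23.8 CPM in normoxia replicates 1, 2 and 3 and at 116, 127 and 114 CPM in hypoxia replicates 1, 2 and 3. The lowest hypoxia library was thus far above the highest normoxia library. Its log2FC was 2.17 (SE 0.10, adjusted p = 2.03e-05, edgeR), a 4.49-fold rise. It ranked 837 among the 15657 genes by log2FC, counted from the highest. The same-numbered pairs gave 2.12, 2.13 and 2.26, and the change stayed between 2.09 and 2.22 with any library or number left out (2.13 without both numbered 3). MXI1 lies on the forward strand of chromosome 10 at 111967363 to 112047123 (GRCh37, 8 merged exons) and shares no exon base with another gene in the files.

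The DNA around the start sites of MXI1 is shown because this member rose most. RefSeq's promoter windows (GRCh38.p14, 250 bases before to 50 after each start) were used for 9 of the 10 members, in 14 windows. MYC was not searched. They were searched on both strands for the core of the HIF site, written as ACGTG or GCGTG, and for the E-box CACGTG, which contains ACGTG on both strands. The core was in 11 of the 14 windows and in 48.4% of all 35116 windows of this length. MXI1 has 3 windows, of which 2 hold the core, and the match after a start is not shown. In the stretches below, on the strand of the gene, the core is in capitals. The first 2 lie at chr10:110210092-110210120 and chr10:110210106-110210134, with cores 127 and 113 bases before one start, and the last at chr10:110225853-110225881, 131 bases before another. A match describes letters and not a bound site.
MXI1 core 127 bases before the start: gccggggctccgGCGTGgccaccagtcac
MXI1 core 113 bases before the start, reverse strand: gtggccaccagtCACGTaagcagagagcc
MXI1 core 131 bases before another start: cgccctgaaacgGCGTGtgcactacgatt

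MXD1 was the least abundant member per length and also rose. Known as a repressor of MYC targets in differentiating cells, it was at 6.06, 6.85 and 6.07 CPM in normoxia replicates 1, 2 and 3 and at 13.1, 12.9 and 9.15 CPM in hypoxia replicates 1, 2 and 3. The groups did not overlap, although hypoxia replicate 3 was the lowest of its condition. The log2FC was 0.88 (SE 0.17, adjusted p = 0.00277), a 1.84-fold rise. Without both libraries numbered 3 it was 1.01 (adjusted p = 3.08e-06), and without both numbered 1 it was 0.77 and missed the threshold (adjusted p = 0.0557). Its RefSeq window holds neither the core nor the E-box.

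MXD4 and MXD3, the remaining MXD genes, did not pass. MXD4 was at 40.9, 45.1 and 40.8 CPM in normoxia replicates 1, 2 and 3 and at 54.3, 43.6 and 60.5 CPM in hypoxia replicates 1, 2 and 3. Only hypoxia replicate 2 lay within the normoxia range. For MXD4 the log2FC was 0.32 (95% interval 0.035 to 0.61, adjusted p = 0.0536), just outside the threshold. It passed with the replicate block (0.31, adjusted p = 0.0307) and without hypoxia replicate 2 (0.44, adjusted p = 0.0117). It was 0.49 without both libraries numbered 2 (adjusted p = 0.0208), and 0.19 without both numbered 3 (adjusted p = 0.0736).

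MXD3, a member known for its expression in dividing cells, was at 31, 32.6 and 34.6 CPM in normoxia replicates 1, 2 and 3. In hypoxia it was at 22.4 and 20.6 CPM in replicates 1 and 2, below all normoxia libraries, and at 37.8 CPM in replicate 3, above all of them. Across all libraries the log2FC was -0.27 (SE 0.22, adjusted p = 0.300). Hypoxia replicate 3 decided this value: without it MXD3 was at -0.61 (adjusted p = 0.00134), and without both libraries numbered 3 at -0.56 (adjusted p = 3.03e-05). Of the exon bases of MXD3 (chromosome 5, 176732501 to 176739292, reverse strand), 731 (23.1%) are shared with PRELID1 on the opposite strand. PRELID1 went from 248 ± 44.7 CPM in normoxia to 146 ± 18.6 CPM with hypoxia. In hypoxia replicates 1, 2 and 3 PRELID1 was at 139, 133 and 168 CPM. Replicate 3 was thus the highest of hypoxia, as for MXD3, but below the normoxia libraries (211 to 298 CPM). The part of the shared bases in the values of MXD3 was not tested. The sources used here do not state the strand setting of the counting, so the count of MXD3 is uncertain.

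MNT, a MAX partner found in most cells and a repressor at MYC sites, rose with little spread. It was at 15.9, 18.3 and 18.8 CPM in normoxia replicates 1, 2 and 3 and at 25.1, 25.5 and 26.9 CPM in hypoxia replicates 1, 2 and 3. For MNT the log2FC was 0.55 (SE 0.098, adjusted p = 0.00211), a 1.46-fold rise. All 3 same-numbered pairs went the same way, with log2 ratios of 0.66, 0.48 and 0.51. MNT stayed past the threshold in 14 of 15 alternative settings and missed it without both libraries numbered 1 (0.50, adjusted p = 0.0520). It was 0.57 without both numbered 3.

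MGA, which pairs with MAX inside the repressive PRC1.6 complex, had the value nearest to 0. Its CPM ranged from 44.3 to 51.8 in normoxia and from 43.6 to 55.1 in hypoxia (log2FC 0.0023, 95% interval -0.25 to 0.26, adjusted p = 0.988). Libraries numbered 3 were the lowest of their condition in both. It was 0.021 without both (adjusted p = 0.812). None of 15 alternative settings called it, and its sign changed in 6 of them.

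**Figure D2:**
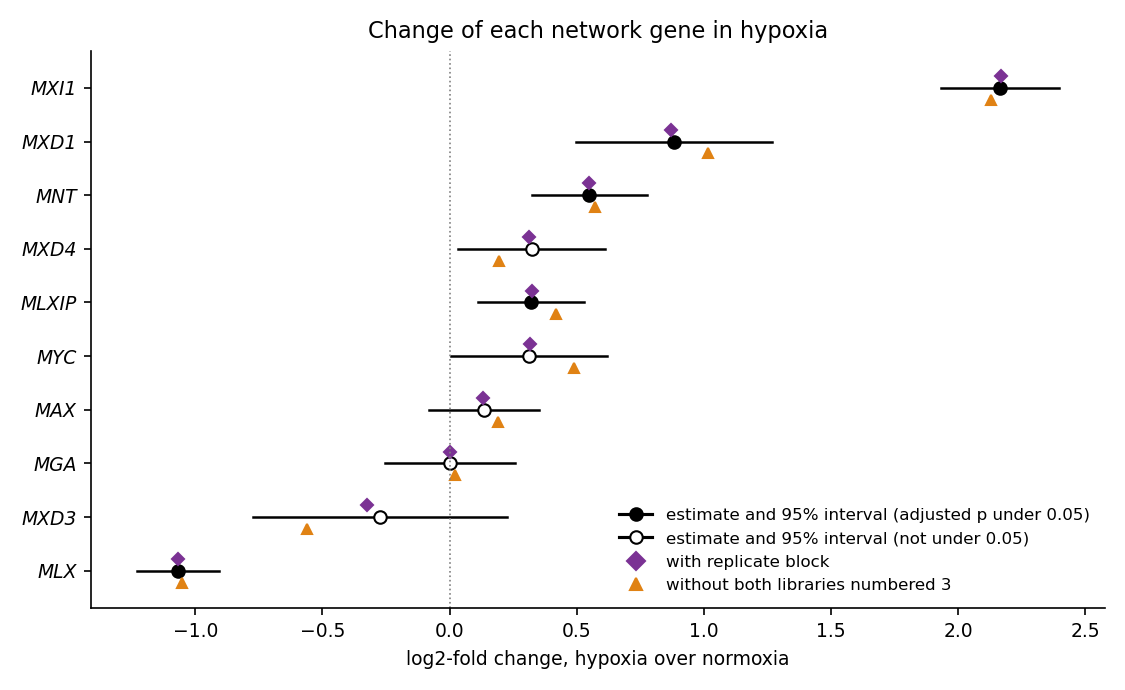
Log2FC of each member in hypoxia over normoxia with its 95% interval (filled circles at an adjusted p under 0.05, open circles otherwise), the value with the replicate block (diamonds) and the value without both libraries numbered 3 (triangles). MXI1 at 2.17 and MLX at -1.07 lie farthest from 0, and MXD3 moves from -0.27 to -0.56 when the libraries numbered 3 are left out.

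MLX, the shared partner of the Mondo branch, was the only member called lower. It was at 130, 121 and 128 CPM in normoxia replicates 1, 2 and 3 and at 59.4, 61.3 and 60.2 CPM in hypoxia replicates 1, 2 and 3. Both groups were tight and far apart. For MLX the log2FC was -1.07 (SE 0.070, adjusted p = 4.41e-05), and it ranked 14994 of 15657 genes from the highest. It remained between -1.11 and -1.04 with any library or number left out (-1.05 without both numbered 3). MLX lies on the forward strand of chromosome 17 at 40719078 to 40725221 (GRCh37, 8 merged exons), and 775 (30.2%) of its exon bases are shared with PSMC3IP on the reverse strand. PSMC3IP itself went from 39.3 ± 6.84 CPM in normoxia to 27.1 ± 5.36 CPM with hypoxia (log2FC -0.53, adjusted p = 0.0276). As the strand setting of the counting is not stated, reads in the shared bases are uncertain for both genes.

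Among the 9 members searched, MLX is one of 3 whose promoter window holds the E-box that the network's own proteins bind, with MNT and MXD4. An E-box was in 3 of the 14 member windows and in 7.26% of all windows. The stretches are shown because they place the network's recognition letters beside its own genes, with the E-box in capitals. They lie at chr17:42567038-42567067, 50 bases before the start of MLX, at chr17:2401236-2401265, 193 bases before that of MNT, and at chr4:2262330-2262359, 238 bases before that of MXD4 (GRCh38.p14, strand of each gene). MLX fell, MNT rose and MXD4 did not pass, so the 3 genes did not share a direction.
MLX E-box: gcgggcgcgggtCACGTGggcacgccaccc
MNT E-box: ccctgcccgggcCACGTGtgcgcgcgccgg
MXD4 E-box: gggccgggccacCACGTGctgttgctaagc

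MLXIP (MondoA), the glucose-responsive partner of MLX, moved the other way. It was at 57.1, 52.5 and 63.7 CPM in normoxia replicates 1, 2 and 3 and at 74.8, 71.2 and 70.5 CPM in hypoxia replicates 1, 2 and 3. The groups did not overlap, and the pairs gave log2 ratios of 0.39, 0.44 and 0.15. Its log2FC over all libraries was 0.32 (SE 0.091, adjusted p = 0.0161), close to that of MYC but with less spread. This call was lost without normoxia replicate 1 (0.30, adjusted p = 0.0748), normoxia replicate 2 (0.24, adjusted p = 0.0728) or hypoxia replicate 1 (0.29, adjusted p = 0.0668). It was 0.29 (adjusted p = 0.198) without both libraries numbered 1, 0.26 (adjusted p = 0.125) without both numbered 2 and 0.42 (adjusted p = 9.39e-05) without both numbered 3.

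**Figure D3:**
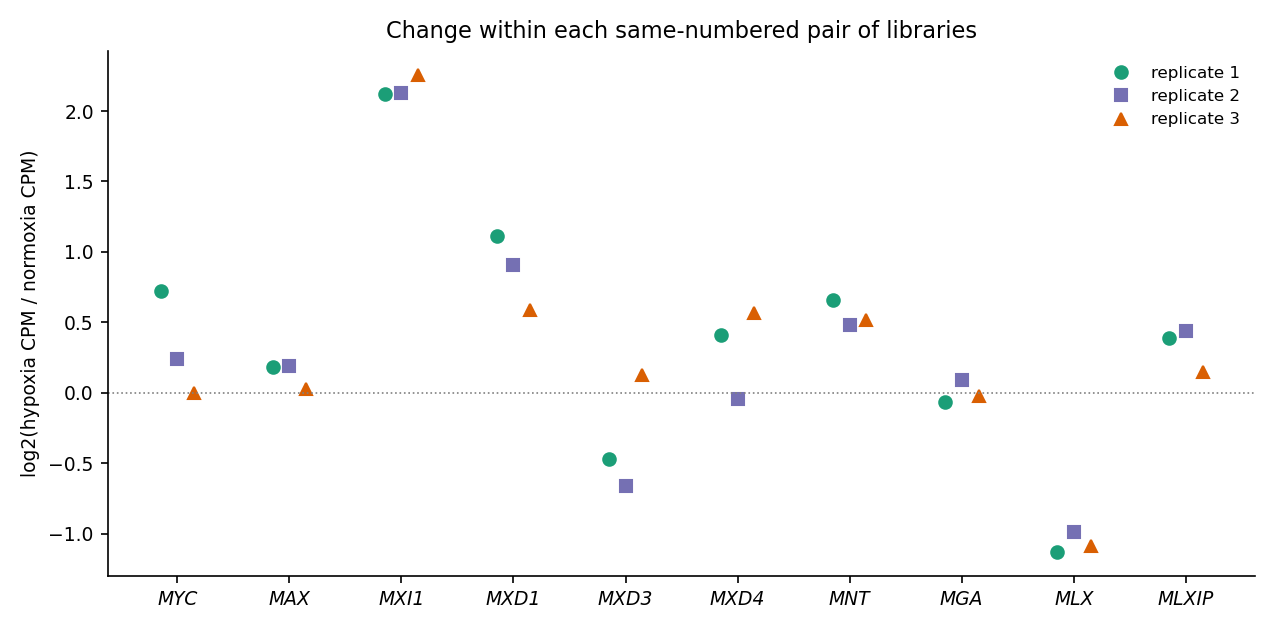
Log2 ratio of hypoxia CPM to normoxia CPM within each same-numbered pair of libraries, for each member. MXI1, MXD1, MNT and MLXIP lie above 0 and MLX below 0 in all 3 pairs, while MYC runs from 0.72 in pair 1 to -0.0037 in pair 3 and MXD3 from -0.66 in pair 2 to 0.13 in pair 3.

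Levels were compared between genes per length, as TPM. In normoxia the order from the highest was MLX (120.4 ± 4.46 TPM), MYC (65.5 ± 8.71 TPM), MAX (33.9 ± 2.45 TPM), MXD4, MXD3, MXI1, MLXIP, MGA, MNT and MXD1 (2.76 ± 0.277 TPM). The ranges of the libraries overlapped between neighbours for MXD4 and MXD3, for MXI1 and MLXIP, and for MGA and MNT. In hypoxia the order was MYC (88.9 ± 11.4 TPM), MXI1 (82.4 ± 7.15 TPM), MLX (62.5 ± 2.47 TPM), MAX (40.6 ± 5.19 TPM), MXD4, MLXIP, MXD3, MNT, MGA and MXD1 (5.56 ± 1.21 TPM). There the ranges overlapped for MYC and MXI1, for MAX and MXD4, and for MLXIP and MXD3. MXI1 thus moved from sixth place, well under MYC, to a level that its spread did not separate from that of MYC.

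The balance of transcripts among MAX partners shifted. MXI1, MXD1, MXD3, MXD4 and MNT together were at 81.2 ± 5.52 TPM in normoxia and 162 ± 3.35 TPM in hypoxia. Their sum was 1.26 ± 0.186 times the TPM of MYC in normoxia (range 1.05 to 1.40) and 1.84 ± 0.250 times in hypoxia (range 1.57 to 2.06; SD, n = 3). The ranges did not overlap. MXI1 made up 20.8% ± 1.69 of this repressor sum in normoxia and 51.1% ± 5.33 in hypoxia. Its mean went from 16.9 to 82.4 TPM, and that of MYC from 65.5 to 88.9 TPM. Among the other repressors, MXD1 went from 2.76 to 5.56 TPM and MXD3 from 25.3 to 22.4 TPM. MXD4 went from 27.4 to 37.1 TPM and MNT from 8.91 to 14.2 TPM. The higher mean ratio of repressors to MYC thus rested mainly on MXI1 and does not describe the repressors as a class. MYCL, a MYC paralog outside the members (2.16 TPM in normoxia and 7.95 TPM in hypoxia), was left out of the sums and ratios here. Of the summed TPM of the 7 MAX partners among the members, MYC held 41.7% ± 4.01 in normoxia and 33.9% ± 3.04 in hypoxia. MXI1 held 10.8% ± 1.48 and 31.6% ± 3.04 of it. The same sum was 4.64 ± 0.425 times the TPM of MAX in normoxia and 6.51 ± 0.797 times in hypoxia. The repressors' ratio to MYC was 1.36 in normoxia and 1.73 in hypoxia without both libraries numbered 3, and the ratio of partners to MAX was 4.41 and 6.09. The MYC share was then 39.5% and 35.1% and the MXI1 share 11.7% and 32.5%. These are descriptions of mRNA without a test, and the sums, ratios and shares all include the uncertain count of MXD3.

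**Figure D4:**
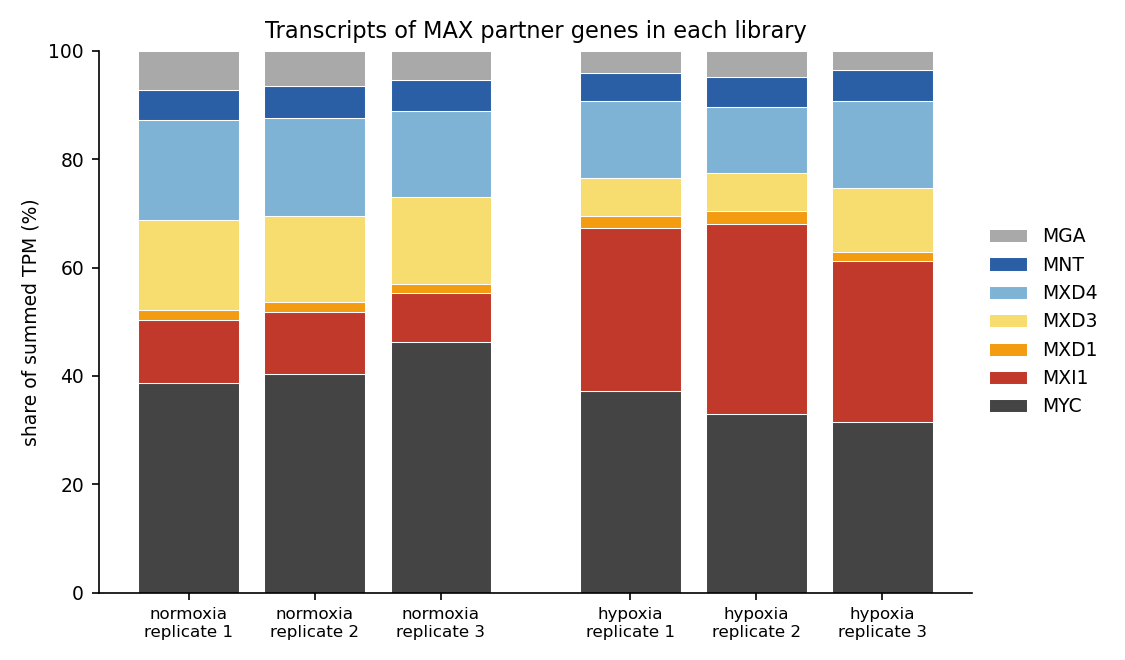
Share of the summed TPM of the 7 MAX partner genes among the members held by each gene (stacked bars, percent), for each library. The MXI1 share grows from 10.8% on average in normoxia to 31.6% in hypoxia, and the MYC share is 38.6% to 46.3% in normoxia and 31.5% to 37.3% in hypoxia.

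On the side of MLX, the TPM of MLXIP was 0.139 ± 0.0111 times that of MLX in normoxia and 0.364 ± 0.0162 times in hypoxia. The level of MLX itself was 3.56 ± 0.234 times that of MAX in normoxia and 1.55 ± 0.152 times in hypoxia (SD, n = 3). MLX was the more abundant of the 2 shared partners in all 6 libraries. The ranges of both ratios were apart between conditions. Both ratios, and the place of MLX in the order above, rest on its uncertain count (30.2% of exon bases shared with PSMC3IP). Leaving out both libraries numbered 3, the ratio of MLXIP to MLX was 0.133 and 0.368, and that of MLX to MAX 3.48 and 1.47.

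The genes whose profiles over the 6 libraries were most like those of MYC and MXI1 were named by the root mean square difference of centred log2 CPM, among 12664 genes whose mean count reached 100. For MYC these were ZGLP1, SSSCA1-AS1, WDCP, SOCS5 and LOC102606465, with differences of 0.071 to 0.088 on the log2 scale. For MXI1 they were HILPDA, LYN, CAPN5, TNFRSF21 and TNFSF15, with differences of 0.084 to 0.10. HILPDA, a lipid droplet protein induced by low O2, went from 69.9 ± 4.64 to 318 ± 6.62 CPM with a log2FC of 2.19 beside 2.17 for MXI1. As these genes were picked by likeness over the same libraries, a similar log2FC follows from the choice.

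Cofactors of the network were examined as lists. The counts below stand beside the 30.4% of all tested genes that rose and the 29.1% that fell (36.4% and 34.8% without both libraries numbered 3), and the medians beside 0.028. Of 16 MYC coactivators, 2 rose, 9 fell and 5 did not pass (median log2FC -0.27), and without both libraries numbered 3, 3 rose and 11 fell. RUVBL1, an ATPase of chromatin remodelling complexes, fell from 161 ± 20.8 to 77.2 ± 13.7 CPM (log2FC -1.06, adjusted p = 6.49e-04). HCFC1, a host cell factor that binds MYC, and TRRAP, the scaffold of histone acetyltransferase complexes, fell by 0.73 and 0.53 on the log2 scale. The acetyltransferase CREBBP and the elongation cyclin CCNT1 rose by 0.46 and 0.30. Of 10 genes of the SIN3 corepressor, through which MXD proteins and MNT repress, 2 rose and 4 fell (median log2FC -0.19), close to the 59.5% of all genes called. SAP30 rose from 15.3 ± 0.765 to 27.4 ± 1.80 CPM (log2FC 0.84) and SIN3B by 0.49 on the log2 scale, and the histone-binding RBBP7 and RBBP4 and the deacetylase HDAC1 fell by 0.95, 0.55 and 0.44. Without both libraries numbered 3, 2 genes of this list rose and 7 fell, against 71.2% of all genes called.

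MGA itself did not pass the test, while 6 of its 9 partners in PRC1.6 fell and 1 rose (median log2FC -0.48), with the same counts without both libraries numbered 3. E2F6, the DNA-binding repressor of this complex, fell from 33 ± 1.40 to 17.9 ± 1.75 CPM (log2FC -0.88). PCGF6 and CBX3, a Polycomb ring finger protein and a heterochromatin protein, fell by 0.68 and 0.48 on the log2 scale. RYBP rose from 53.1 ± 2.62 to 89.4 ± 9.16 CPM (log2FC 0.75). Of 15 genes that act on MYC protein turnover, 2 rose and 7 fell (median log2FC -0.0081), close to the 59.5% of all genes called. With the replicate block 5 rose and 7 fell, against 71.8% of all genes. The kinase AURKA, which is known to protect MYC proteins from degradation and peaks in mitosis, fell from 213 ± 17.5 to 83.3 ± 22.2 CPM (log2FC -1.35). The ubiquitin ligase components SKP2 and STUB1 fell by 0.53 and 0.67 on the log2 scale. USP36, a nucleolar deubiquitinase, rose by 0.71 and the kinase PIM1 by 0.39. Leaving out both libraries numbered 3, 4 genes of the turnover list rose and 7 fell, and PIM1 was no longer called (0.29, adjusted p = 0.0915).

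Genes known as MYC-activated targets were mostly lower in hypoxia. Of 36 listed, 35 were tested, 25 fell, 1 rose and 9 did not pass (median log2FC -0.71). EIF4E, the cap-binding initiation factor, fell from 64.1 ± 1.55 to 30.1 ± 1.76 CPM (log2FC -1.09, adjusted p = 6.16e-05). NOLC1 and NOP56, both nucleolar proteins of ribosome production, fell by 1.02 and 0.85 on the log2 scale. TFRC, the transferrin receptor and also a known HIF target, was the 1 gene that rose (0.54). Without both libraries numbered 3, 26 fell and 3 rose, and with the block 27 fell and 2 rose. The lists overlap in function with growth genes at large, and these genes have regulators besides MYC.

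Glycolytic genes known as targets of both MYC and HIF all rose (7 of 7, median log2FC 1.58), among them PDK1 (2.26), SLC2A1 (1.80) and LDHA (1.66). All 7 were also called higher without both libraries numbered 3. Of 9 genes that MYC is known to repress, 7 rose and 1, THBS1, fell (7 and 2 without both libraries numbered 3). The 7 included PDGFRB, which had 0 to 3 counts per library in normoxia and was named after its values were seen. It passed the filter on low counts only through the hypoxia libraries (14 to 28 counts). Its place among the 7 was thus tied to its level in hypoxia and adds nothing to the count. NDRG1, a stress response gene, rose from 23 ± 2.49 to 476 ± 48.1 CPM (log2FC 4.37), and the cell cycle inhibitor CDKN1A and the growth arrest gene GADD45A rose by 2.65 and 2.04 on the log2 scale. Several of these are known to respond to HIF as well.

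All 5 listed targets of the MondoA-MLX pair rose, while MLX fell. TXNIP, the inhibitor of thioredoxin and of glucose uptake that MondoA is best known to induce, was at 126, 139 and 85 CPM in normoxia replicates 1, 2 and 3 and at 450, 545 and 314 CPM in hypoxia replicates 1, 2 and 3. Its log2FC was 1.90 (SE 0.24, adjusted p = 4.43e-04), with libraries numbered 3 the lowest of both conditions. Without both of these it was 1.91, and all 5 targets were again called higher. ARRDC4, its arrestin-family relative, went from 14.4 ± 2.28 to 46.7 ± 11.1 CPM (log2FC 1.69, adjusted p = 3.39e-04). HK2, KLF10 and PFKFB3 rose by 1.58, 1.29 and 1.19 on the log2 scale, and HK2 and PFKFB3 are also known HIF targets. The counts of these lists rest on symbols chosen from general knowledge, but with earlier results of these data known. The lists were given no test of their own.

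**Figure D5:**
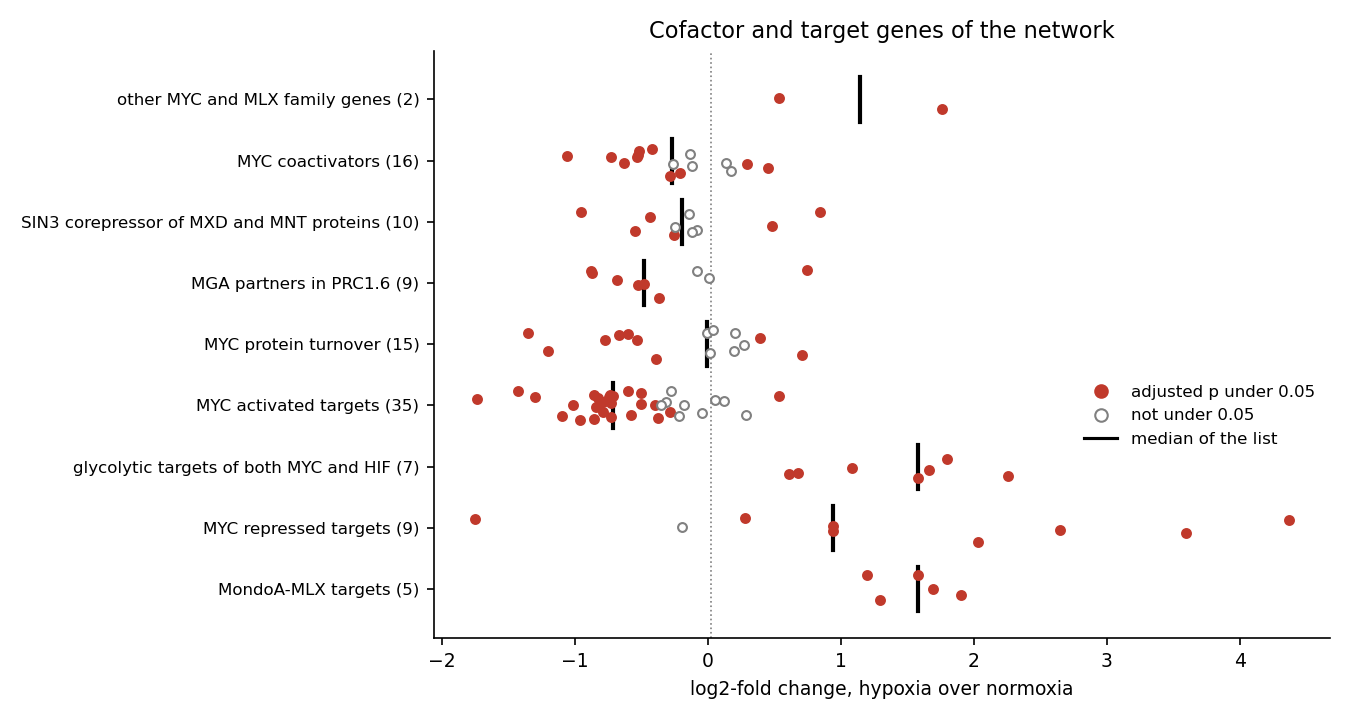
Log2FC in hypoxia over normoxia of each tested gene in 9 lists of related genes, with the number tested in brackets, filled points at an adjusted p under 0.05, black bars at the list medians and a dotted line at the median of all tested genes (0.028). The MYC-activated list has its median at -0.71, and the glycolytic and MondoA-MLX lists, which share HK2, have theirs at 1.58.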

How the data were processed

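RNA from 6 T47D libraries (3 normoxia, 3 hypoxia) was sequenced by the authors from stranded mRNA libraries. The authors trimmed reads (Skewer), mapped them to GRCh37 (STAR 2.5.2a) and deposited raw counts per RefSeq gene from featureCounts 1.5.1. Skewer and the annotation are named in the study's methods, and versions, with FastQC 0.11.5, in the submitters' processing notes. Strand setting and multi-mapped reads are not given in the sources used here. The other column used, the deposited exon length per gene, served for TPM.

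Counts were analysed in R 4.3.3 with edgeR 4.0.16 (filterByExpr with a minimum count of 10 and total of 15, TMM, quasi-likelihood test, condition as the only term, Benjamini-Hochberg over 15657 genes, threshold 0.05). The study names edgeR's exact test, which was an alternative with DESeq2 1.42.0. Standard errors are the log2-fold change over the square root of F. Libraries sharing a number deviated together across genes (r = 0.338, 0.422 and 0.575), so the number was also fitted as a block. Libraries numbered 1 and 2 also deviated together across numbers (r = 0.243 and 0.277). Those numbered 3 went against both (r from -0.376 to -0.466). Deviations were taken from the mean of the 3 libraries of a condition, so these negative values follow from the positive ones. By the positive values across numbers 1 and 2, much of this pattern set number 3 apart from the others. The closest libraries of a condition differed by more than sampling noise (chi-square of 6.09 per degree of freedom). Coordinates are 1-based. Of each member's exon ends in the files, from 11 of 14 (MXD1) to 33 of 34 (MLXIP) were also in GENCODE v44 for GRCh37. Fits were tested on simulated data with few changed genes (99 of 15500 at each size of change) and no replicate effect. That test does not cover data such as these, where most genes were called and replicates differed.

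The members and lists were chosen with earlier results of these data known. Named genes were the members, up to 3 genes each way per list by smallest p with a mean of at least 100 counts, all genes of lists with at most 5, and the 5 nearest profiles to MYC and MXI1. PDGFRB, marker genes and genes sharing exons with members were named after their values were seen.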

Additional observations from a re-analysis of the deposited data

How the results depend on the processing

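Over 15 alternative settings, MXI1 and MLX kept their direction and passed the threshold in all 15, MXD1 and MNT in 14 and MLXIP in 10. MYC passed in 4, MAX in 3, MXD3 in 2, MXD4 in 6 and MGA in 0. MGA was below 0 with DESeq2 (-0.0084), RLE size factors (-0.0081), no filter on low counts (-0.0028), without normoxia replicate 3 (-0.073), without hypoxia replicate 2 (-0.087) and without both libraries numbered 2 (-0.050). With libraries left out it ranged from -0.087 to 0.082. The cause was not tested.

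The 5 members called became 8 with upper-quartile factors (59.1% of all genes called) and 2 at an absolute log2FC of at least 1. With a library or a number left out they ranged from 2 to 8. Under upper-quartile factors the median over all genes was higher by 0.157 (log2). Relative to that median MYC was at 0.29 under both scalings and MLX at -1.10 and -1.09. Of the genes called, 51.1% were higher with TMM and 64.5% with upper-quartile factors. Over all genes, 9316 were called, 3141 at the log2FC limit, and 4839 to 11257 with libraries left out. List genes called went from 80 to 23 at that limit and from 53 to 92 with libraries left out. The replicate block called MYC and MXD4 and changed no other member's call (11244 genes in all). MXD4 also passed with the exact test (0.32, adjusted p = 0.0422), DESeq2 (0.31, adjusted p = 0.0448) and upper-quartile factors (0.48, adjusted p = 0.0101), and MAX with the last (0.29, adjusted p = 0.0421), as did MYC (0.48, adjusted p = 0.0121).

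Without length correction, the repressors' counts were 2.00 times those of MYC in normoxia and 3.01 times in hypoxia, as longer genes collect more reads. With a library left out the TPM ratio was 1.18 to 1.36 in normoxia and 1.73 to 1.97 in hypoxia.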
